A study of Mus musculus with 4 samples.

Results

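Single-nucleus RNA sequencing (snRNA-seq) of the mouse cerebral cortex was used to describe 10 cadherin genes: Cdh4, Cdh6, Cdh7, Cdh8, Cdh9, Cdh10, Cdh11, Cdh12, Cdh13 and Cdh18. They were chosen by gene symbol, as 10 of the 21933 genes in the count matrices, with earlier results of these nuclei known. The values on which the choice rested are the unique molecular identifier (UMI) counts that are compared between genotypes here, so genotype differences of these 10 genes are given as a description. The tissue was right cortex of adult males on the C57Bl/6 J background. The 2 Control animals (CrT+/y) were wild-type littermates of the 2 CrT-KO animals (CrT-/y), which carry a deletion of several exons of the X-linked creatine transporter gene Slc6a8 in every cell. Each library came from 1 animal.

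Cadherins are calcium-dependent adhesion proteins that span the membrane and bind cadherins on the neighbouring cell through repeated extracellular domains. Inside the cell most of them bind beta- and delta-catenins, and alpha-catenin joins this complex to actin. Type II cadherins are expressed in overlapping combinations in the developing and adult brain, where they take part in the sorting of neurons and the matching of synaptic partners. Of the 10 genes, Cdh6, Cdh7, Cdh8, Cdh9, Cdh10, Cdh11, Cdh12 and Cdh18 encode type II cadherins. Cdh4 encodes R-cadherin, a type I cadherin, and Cdh13 encodes T-cadherin, which lacks the intracellular part and is held in the membrane by a lipid anchor.

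On the GRCm38 build (GENCODE vM21), 5 of these genes lie on chromosome 15 in 1 stretch of 10.4 Mb. They are Cdh6 (ENSMUSG00000039385, chromosome 15, 13028701 to 13173675), Cdh9 (ENSMUSG00000025370, 16728756 to 16857094), Cdh10 (ENSMUSG00000022321, 18818947 to 19014236), Cdh12 (ENSMUSG00000040452, 20449265 to 21589533) and Cdh18 (ENSMUSG00000040420, 22549022 to 23474418). Chromosome 8 holds Cdh8 (ENSMUSG00000036510, 99024471 to 99416471), Cdh11 (ENSMUSG00000031673, 102632095 to 102785642) and Cdh13 (ENSMUSG00000031841, 118283733 to 119324921). Cdh4 (ENSMUSG00000000305) is on chromosome 2, 179442431 to 179899373, and Cdh7 (ENSMUSG00000026312) is on chromosome 1, 109982431 to 110140157. The gene bodies range from 128 kb for Cdh9 to 1140 kb for Cdh12. Intronic reads were counted, so long genes gather more UMIs, and levels of different genes are compared below only per 100 kb of gene body. Cdh12 overlaps Acot10 on the opposite strand, a gene with 78 UMIs over the 4 libraries, and whether counting used the strand was not stated. No other counted gene overlaps the members.

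The libraries held 8282 to 9295 nuclei and 51507483 to 65240843 UMIs each, with medians of 5548 to 6700.5 UMIs per nucleus. Pairs of libraries shared 12 to 19 cell barcodes. The targeted gene, Slc6a8, was at 7.01 and 6.24 UMIs per 1000000 in the named nuclei of Control animals and at 1.68 and 1.66 in those of CrT-KO animals, so the 4 libraries matched their labels. Clusters were made without any gene of the cadherin and catenin lists, so that the populations were not defined by the genes described. They gave 16394 excitatory neurons, 7688 inhibitory neurons, 5121 oligodendrocytes, 2230 microglia, 661 oligodendrocyte precursor cells (OPCs), 494 astrocytes, and 427 endothelial cells and pericytes. Names ending in "-like" were given by marker genes for the excitatory types (IT, intratelencephalic; ET, extratelencephalic; NP, near-projecting; CT, corticothalamic, each with its cortical layer) and for the inhibitory subclasses, of which MSN-like nuclei carry markers of striatal projection neurons. Of the 7 L5 IT-like markers only 2 were highest in that population, and 2 clusters with the highest L6b score met no naming rule. Clusters without a name are called here by their leading genes. The endothelial and pericyte population carried neuronal RNA: the median of 13 neuronal markers there was 55.5% to 84.9% of their excitatory level. Its cadherin values are therefore not described by themselves. It remains in the orders of populations, in the search for genes with a similar profile and in the counts of tests.

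Each cadherin had its own distribution over 17 populations, which were the 7 excitatory types, the 5 inhibitory subclasses and the 5 non-neuronal classes. Levels are UMIs per 1000000 UMIs of the population in that library (CPM), given as the mean ± SD of the 2 Control libraries. The ratio of the highest to the lowest population ran from 10.3 for Cdh10 to 192 for Cdh13. The lowest Cdh13 level, 7.77 CPM in L5 IT-like nuclei, rested on 3 and 3 UMIs in Control, where CrT-KO replicate 2 gave 12. The next lowest Cdh13 level was 62.0 CPM, in L4/5 IT-like nuclei. Clusters without a name were left out of this order, and some of them had higher levels, given below with each gene. Many neighbours in these orders could not be separated, since the ranges of their 4 libraries overlapped for 9 to 14 of the 16 neighbouring pairs of each gene.

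**Figure D1:**
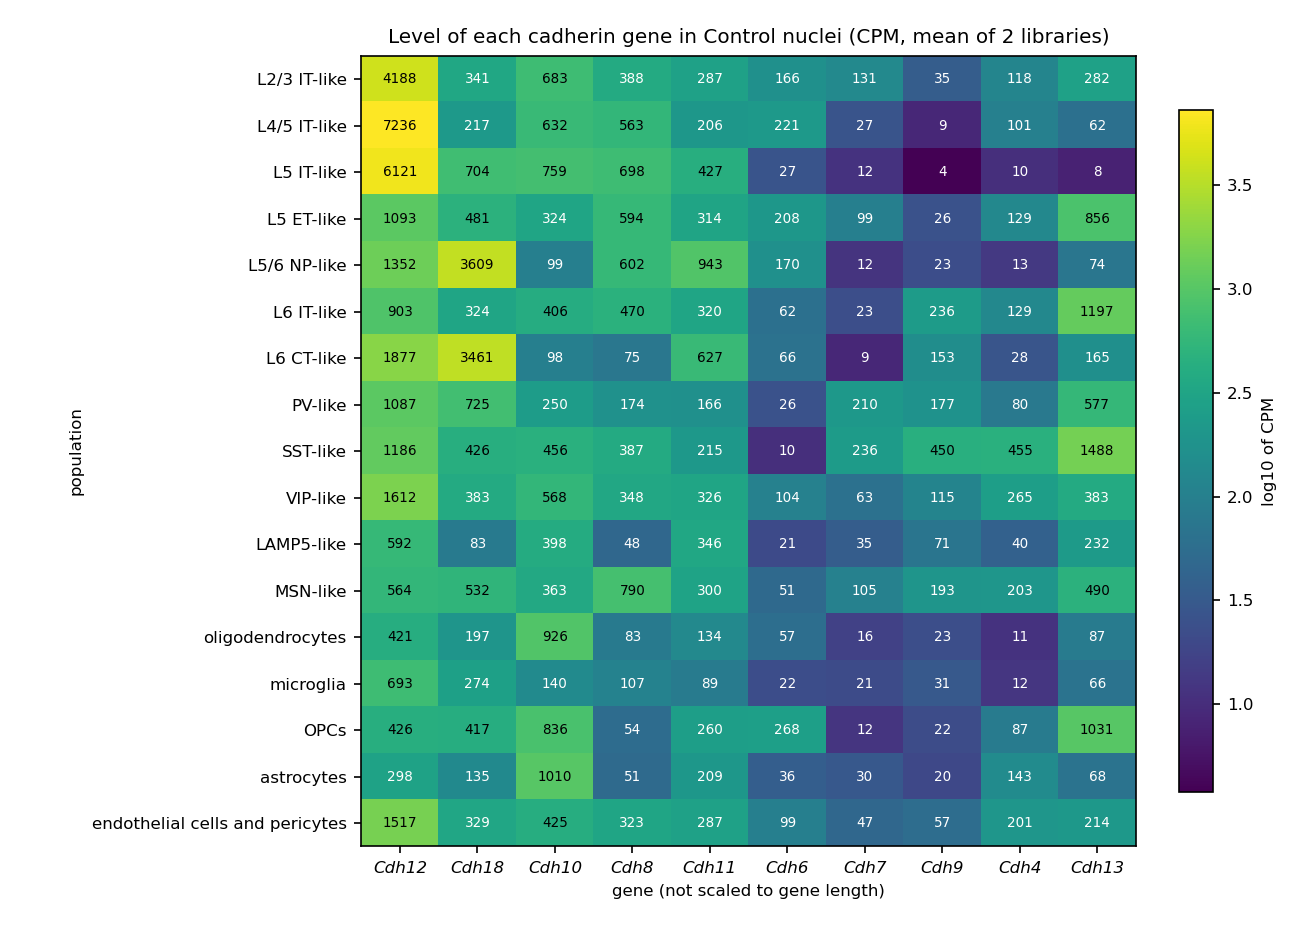
Mean level of the 10 cadherin genes (columns) in 17 populations (rows) of the 2 Control libraries, in CPM as printed in each cell, with the colour on a log10 scale. Cdh12 peaked in the L4/5 IT-like and L5 IT-like rows, Cdh18 in the L5/6 NP-like and L6 CT-like rows, Cdh13 in the SST-like row and Cdh10 in the astrocyte row. Values are not scaled to gene length and are comparable within a column.

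Among the named populations, Cdh12, a type II cadherin, was highest in intratelencephalic types. Its Control level was 7236 CPM in L4/5 IT-like nuclei (7087 and 7385) and 6121 CPM in L5 IT-like nuclei (6081 and 6161). L2/3 IT-like nuclei followed with 4188 CPM (4164 and 4211). The L5 IT-like level came from 215 nuclei. The unnamed cluster led by Il1rapl2 and Deptor (897 nuclei) had a higher L5 IT score (1.33 against 0.919) but too few markers detected for a name. Its Cdh12 level was 3370 CPM (3299 and 3441). All 4 libraries of L2/3 IT-like nuclei were below all those of L5 IT-like nuclei and above those of L6 CT-like nuclei (1877 CPM, 1872 and 1883). L6 IT-like nuclei had only 903 CPM (953 and 852). The larger unnamed cluster led by Dnah14 and Galnt14 had 4111 CPM (4185 and 4037). Its highest score was also L6 IT-like, but under the naming limit. No level is therefore given for deep intratelencephalic neurons as a whole. Inhibitory subclasses ranged from 564 CPM in MSN-like nuclei to 1612 CPM in VIP-like nuclei. Among unnamed excitatory clusters, the one led by St8sia6 and Tshz2 reached 7968 ± 496 CPM (SD, n = 2) and the one led by Thsd7b and Rai14 had 402 and 542 CPM in its Control libraries.

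Cdh18, whose type II protein is expressed mainly in the nervous system, peaked in other layers. It was highest in L5/6 NP-like nuclei, at 3609 CPM (3353 and 3866), and in L6 CT-like nuclei, at 3461 ± 69.7 CPM (SD, n = 2), and the ranges of these 2 populations overlapped. The next population, PV-like nuclei, had 725 CPM (713 and 737), below every library of the former. The unnamed cluster led by Thsd7b and Rai14, where Cdh12 was lowest of the excitatory populations, had the highest Cdh18 level of all populations and clusters measured, 5822 ± 582 CPM (SD, n = 2), followed by the one led by Fbxl7 and Svil with 4274 ± 663 CPM. In the layer 2 to 5 intratelencephalic types, Cdh18 was 341 CPM in L2/3 IT-like, 217 CPM in L4/5 IT-like and 704 CPM in L5 IT-like nuclei.

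Among the named populations, Cdh11, which is also known from bone and mesenchyme as OB-cadherin, peaked in the same 2 deep types as Cdh18. It reached 943 ± 61.3 CPM in L5/6 NP-like nuclei (SD, n = 2) and 627 CPM in L6 CT-like nuclei (607 and 647). Each was above the next named population in every library. Unnamed clusters reached the L6 CT-like level. The one led by Rxfp1 and Col12a1 had 731 CPM, the one led by Thsd7b and Rai14 717 CPM and the one led by Fbxl7 and Svil 637 CPM. L5 IT-like nuclei had 427 CPM, and the next 12 populations, from LAMP5-like to PV-like nuclei, lay between 346 and 166 CPM with overlapping neighbours. Cdh8, another type II cadherin, was highest in the unnamed excitatory cluster led by Vwc2l and Tshz2, with 1078 and 1200 CPM in Control, where all 4 libraries were above those of any named population. Among the named populations MSN-like nuclei came first (790 ± 14.7 CPM, SD, n = 2), and its levels in the 4 layer 4 and 5 types lay between 563 and 698 CPM. L6 CT-like nuclei, rich in Cdh11 and Cdh18, had 75.3 CPM of Cdh8 (83.6 and 67.1).

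Of the named populations, Cdh6 was found most in OPCs (268 ± 17.1 CPM, SD, n = 2), L4/5 IT-like nuclei (221 CPM) and L5 ET-like nuclei (208 CPM), and least in SST-like nuclei (10.4 ± 4.02 CPM). The unnamed cluster led by Fbxl7 and Svil had 222 CPM of Cdh6 (199 and 245). Cdh7 was highest in interneurons, at 236 ± 5.03 CPM in SST-like and 210 ± 9.12 CPM in PV-like nuclei (SD, n = 2), whose ranges overlapped, and in excitatory neurons it was highest in L2/3 IT-like nuclei (131 CPM). Of the named populations SST-like nuclei also had the most Cdh9, 450 ± 120 CPM (SD, n = 2), where the Control libraries differed (535 and 365). The unnamed inhibitory cluster led by Gpr149 and Slco5a1 (350 and 559 CPM) and the excitatory one led by Rxfp1 and Col12a1 (463 and 433 CPM) had Cdh9 levels that overlapped these. Among the named excitatory types Cdh9 was highest in those of layer 6, with 236 CPM in L6 IT-like and 153 CPM in L6 CT-like nuclei. L4/5 IT-like nuclei had 8.68 CPM (31 and 52 UMIs). The unnamed excitatory cluster led by Lypd1 and Adamtsl1 had 440 and 257 CPM of Cdh9 in Control, and the one led by Dnah14 and Galnt14 had 275 and 254 CPM.

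SST-like nuclei came first among the named populations for Cdh4 and Cdh13 too, the members outside the type II group, but not once unnamed clusters were counted. The excitatory cluster led by Fbxl7 and Svil had 2195 and 2244 CPM of Cdh13 in Control, and all 4 of its libraries were above every SST-like library. The inhibitory cluster led by Gabrg1 and Prlr had 513 and 485 CPM of Cdh4, which overlapped the SST-like range over the 4 libraries. Cdh4 had 455 ± 28.5 CPM there and 265 CPM in VIP-like nuclei (267 and 263), while PV-like nuclei had 80.5 CPM. Cdh13 had 1488 CPM in SST-like nuclei (1506 and 1470), above all libraries of the next named population, L6 IT-like nuclei with 1197 CPM (1146 and 1247). It then followed in OPCs (1031 ± 154 CPM, SD, n = 2) and L5 ET-like nuclei (856 CPM). In L4/5 IT-like nuclei, where Cdh12 was highest, Cdh13 was at 62.0 CPM.

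Per 100 kb of gene body the order of the genes differed from their raw levels. In Control excitatory neurons Cdh12 had 319 CPM per 100 kb, Cdh10 had 292 and Cdh11 had 241, whereas Cdh13 had 36.4, Cdh7 had 35.6 and Cdh4 had 23.5. In inhibitory neurons Cdh10 (197 CPM per 100 kb), Cdh9 (159) and Cdh11 (155) came first, and Cdh12 was the fifth with 85.9. In astrocytes and oligodendrocytes Cdh10 led with 517 and 474 CPM per 100 kb.

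Genes outside the 10 with the most similar profile were searched among 9306 genes with at least 20 CPM in 1 population, by Pearson's r of log2(CPM + 1) over 19 populations, which share libraries and include 2 classes that contain the others. These are descriptions with no test. Cdh12 was closest to Xirp2 (r = 0.917) and Herc3 (0.877), Cdh8 to Cntnap5b (0.891) and Hs6st3 (0.889), and Cdh7 to Cntnap5c (0.857) and Slc4a3 (0.814). Cdh9 was closest to Cntnap3 (0.838) and Rps6ka2 (0.813), so that 3 members had a Cntnap gene, of the neurexin-related Caspr family, as the nearest. For Cdh11 the pair was Scai (0.841) and Afdn (0.818), the latter encoding afadin, an actin-binding junction protein that is in the catenin list below. Cdh10 was nearest to Tmtc2 (0.837) and Bicc1 (0.775), Cdh4 to Smarcd3 (0.825) and Rbm20 (0.748), Cdh13 to Ppa1 (0.799) and Fndc1 (0.798), Cdh18 to Slit1 (0.774) and Col12a1 (0.770), and Cdh6 to Zfp651 (0.713) and Sept8 (0.712). Among the members, the pair least alike was Cdh10 and Cdh18 (r = -0.63 over 19 populations).

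Glial levels were read against neuronal RNA. The 13 neuronal markers expressed in excitatory neurons gave, in oligodendrocytes, 5.02% to 27.4% of their excitatory level over the 4 libraries, with library medians of 11.8% to 14.6%, and in microglia 6.88% to 40.7%, with medians of 16.4% to 22.8%. No marker was at 0 in either class. Cdh12 lay inside these ranges, at 11.4% and 11.7% of its excitatory level in the Control oligodendrocytes and 17.1% and 20.9% in the Control microglia, so that its glial level was no higher, relative to neurons, than that of neuronal markers. Cdh10 did not, as it was higher in astrocytes (1010 ± 114 CPM), oligodendrocytes (926 ± 141 CPM) and OPCs (836 ± 86.9 CPM) than in excitatory neurons (569 CPM), at 184% and 142% of the excitatory level in the Control oligodendrocytes (SD, n = 2). Unnamed excitatory clusters reached similar Cdh10 levels. The one led by Il1rapl2 and Deptor had 1009 CPM (989 and 1028) and the one led by Hgf and Rorb 988 CPM (955 and 1021). In OPCs, where the markers ranged from 2.44% to 41.3%, Cdh13 was at 286% and 257% and Cdh6 at 205% and 228% in the Control libraries. Cdh11 was above the markers in all libraries of oligodendrocytes (35.3% to 42.6%), OPCs (63.1% to 99.5%) and astrocytes (43.6% to 57.4%, against markers of 2.68% to 32.0%). Cdh6 was so in oligodendrocytes (42.4% to 57.1%), and Cdh4 in OPCs (64.7% to 98.4%) and astrocytes (79.4% to 207%). In microglia no gene was above the markers in all 4 libraries, and 8 of the 10 lay inside their range in each.

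**Figure D2:**
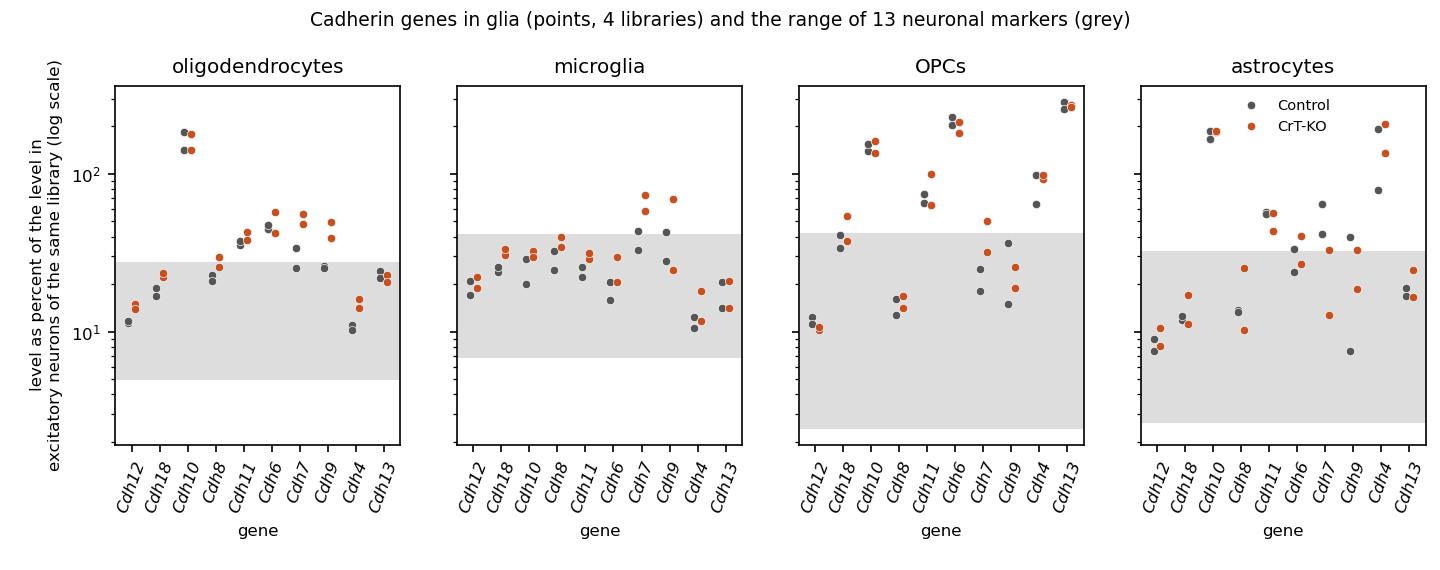
Level of each cadherin gene in 4 glial classes as a percent of its level in excitatory neurons of the same library, on a log axis, with 1 point per library and grey bands for the lowest to highest value of 13 neuronal markers over the 4 libraries. All points of Cdh10 and Cdh11 stood above the band in oligodendrocytes, OPCs and astrocytes, those of Cdh13 in OPCs, those of Cdh6 in oligodendrocytes and OPCs and those of Cdh4 in OPCs and astrocytes, and Cdh12 lay inside the band in all 4 classes.

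The study asked in which cell populations loss of the transporter alters expression. In excitatory neurons, Cdh12 gave 3558 and 3713 CPM in the Control libraries and 4308 and 4211 CPM in the CrT-KO libraries. Both CrT-KO values were above both Control values, and the log2 fold change was 0.28 (SE 0.06). Cdh9 was on the other side, with 100 and 79.3 CPM in the Control against 64.0 and 67.6 CPM in the CrT-KO libraries, again with no overlap (log2 fold change -0.40, SE 0.10). Cdh18 (1089 and 1129 against 1164 and 1186 CPM) and Cdh10 (557 and 581 against 594 and 595 CPM) were higher in both CrT-KO libraries by smaller amounts, 0.13 (SE 0.06) and 0.11 (SE 0.07) on the log2 scale. Cdh13 was at 399 and 359 against 329 and 325 CPM, or -0.16 (SE 0.07) on the same scale.

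The values of Cdh8 were 386 and 370 CPM in Control and 340 and 337 CPM in CrT-KO (log2 fold change -0.11), those of Cdh7 58.7 and 53.6 against 45.1 and 50.1 CPM (-0.19), and those of Cdh4 102 and 113 against 97.9 and 91.4 CPM (-0.14). Cdh11 was lower in CPM (368 and 372 against 322 and 356) with a log2 fold change of -0.08 (SE 0.07), and Cdh6 overlapped (137 and 112 against 119 and 131 CPM). The 5 members on chromosome 15 went both ways, with Cdh10, Cdh12 and Cdh18 higher, Cdh9 lower and Cdh6 overlapping, and the 3 on chromosome 8 were lower in CPM. Besides these members only Acot10 was tested in the chromosome 15 stretch, with a log2 fold change of -0.13. It is named after its value was seen.

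Of the 10 members, 3 were higher and 6 lower in CPM with no overlap between genotypes, where 11.6% and 29.4% of all 13925 tested genes were so. With the TMM scaling of the fits, which moves the median difference of all genes from -0.05 to about 0 on the log2 scale, these counts were 3 and 5 for the members (Cdh11 overlapped) beside 18.8% and 20.4% of all genes. No member passed the threshold of an adjusted p of 0.1 in the edgeR fit, which called 0.158% of genes. An unadjusted edgeR p under 0.05 was found for 4 members and for 1242 of all 13925 genes. DESeq2 called 2 members, Cdh9 and Cdh12, and 0.539% of genes. Since the members were chosen with this contrast known, nothing is read from these counts. The median log2 fold change was -0.09 over the members. Over the 223 other tested genes with a body above 500 kb it was 0.06, and 2 of them were called (0.897%).

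**Figure D3:**
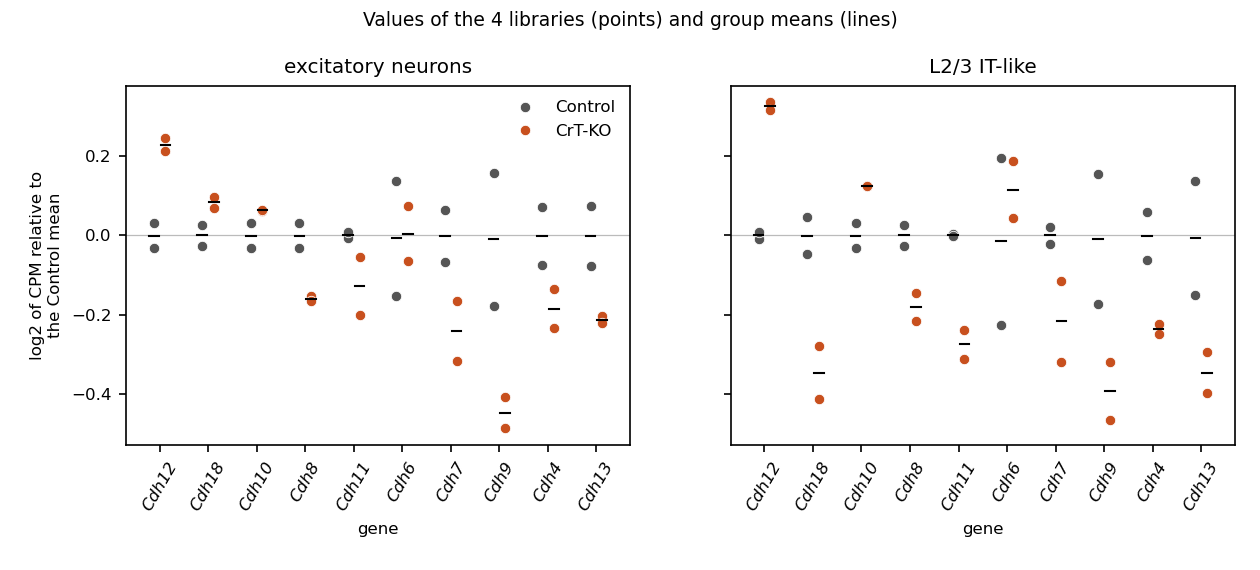
Values of the 10 cadherin genes in each of the 4 libraries, as log2 of the CPM relative to the mean of the Control libraries, in all excitatory neurons (left) and L2/3 IT-like nuclei (right). Points are libraries and black lines the group means. Cdh12 was higher in both CrT-KO libraries in both panels, and Cdh18 was higher in the left panel but lower in the right one.

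Excitatory neurons are a mixture of 24 clusters, so the part of a difference that changed cluster shares alone would give was computed from the Control level of each cluster. For Cdh12 the shares gave a log2 ratio of -0.01 against the observed 0.23 in CPM, and for Cdh9 they gave -0.10 against -0.45. The shares gave 30.5% of the difference for Cdh4, 29.7% for Cdh7, 24.2% for Cdh9, 15.1% for Cdh13 and 66.3% for Cdh18. For Cdh8, Cdh10, Cdh11 and Cdh12 they went the other way, and the difference of Cdh6 was too near 0 (0.01) to be divided. The cluster led by Thsd7b and Rai14, with the highest Cdh18 level, held 1.78% and 1.70% of excitatory UMIs in Control and 2.44% and 2.95% in CrT-KO.

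By named excitatory type, Cdh12 and Cdh8 each kept 1 direction in all 7, and Cdh7 in the 5 where it was tested. The log2 fold change of Cdh12 was above 0 in all 7 named types, from 0.05 in L5/6 NP-like to 0.38 in L2/3 IT-like nuclei, and both CrT-KO libraries lay above both Control libraries in 5 of the 7, where 2.01% of the 4526 genes tested in all 7 types were so in at least 5. The same held in 8 of 11 unnamed excitatory clusters and was reversed in none of them. Of all 13925 genes tested in excitatory neurons, 0.187% were so in at least 8 of these clusters. That share had no count filter within a cluster and includes genes with few UMIs there. It is therefore not comparable with the 2.01% of the named types, and nothing is read from it. All types and clusters come from the same 4 animals, so they are not independent of each other. In L2/3 IT-like nuclei Cdh12 had 4164 and 4211 CPM in Control and 5288 and 5214 CPM in CrT-KO (log2 fold change 0.38, SE 0.07). The values in L4/5 IT-like nuclei were 7087 and 7385 against 8689 and 8069 CPM, and those in L5 ET-like nuclei, where the gene is much lower, 1123 and 1063 against 1353 and 1286 CPM. L5/6 NP-like and L6 IT-like libraries overlapped.

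**Figure D4:**
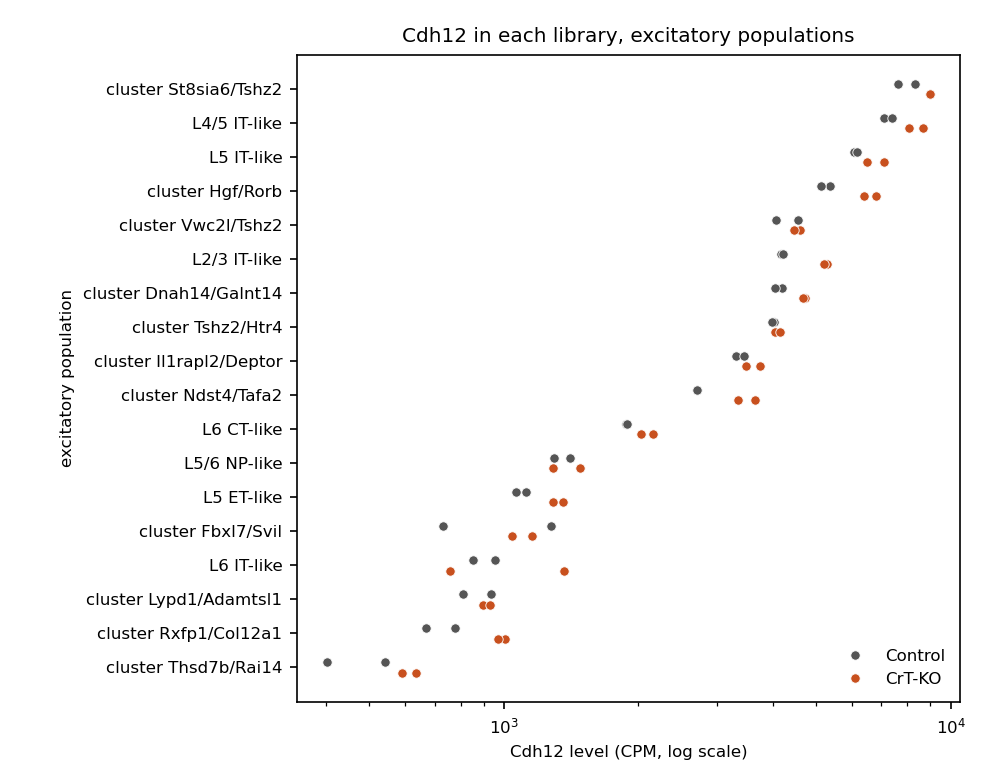
Cdh12 level in CPM, on a log axis, in each library of 18 excitatory populations, ordered by the mean of the Control libraries. Both CrT-KO points lay to the right of both the Control points in 5 of the 7 named types and in 8 of the 11 unnamed clusters, over Control means from 472 to 7968 CPM.

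Cdh12 in L2/3 IT-like nuclei was the only call among 65 tests of members in the 7 types, and DESeq2 made 1 call as well. Of the 65 tests, 17 had an unadjusted edgeR p under 0.05. Over all genes such p values numbered 1109 of 11463 in L2/3 IT-like, 912 of 10697 in L4/5 IT-like and 311 of 4642 in L5 IT-like nuclei. They numbered 700 of 9192 in L5 ET-like, 370 of 6688 in L5/6 NP-like, 454 of 7261 in L6 IT-like and 772 of 10272 in L6 CT-like nuclei. Nothing is read from the 17, as the members were chosen with this contrast known. The edgeR fits called 1.51% of genes in L2/3 IT-like, 0.598% in L4/5 IT-like, 0% in L5 IT-like, 0.261% in L5 ET-like, 0.0150% in L5/6 NP-like, 0.207% in L6 IT-like and 0.273% in L6 CT-like nuclei. In L2/3 IT-like nuclei DESeq2 called 0.680%. Long genes were called more often there: of 220 other genes with a body over 500 kb, 39 were called (17.7%), of which 29 rose and 10 fell. The part that gene length plays in the Cdh12 value was not tested.

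The other members varied more between types. In L2/3 IT-like nuclei 2 members were higher and 7 lower with no overlap between genotypes, both in CPM, where 12.5% and 26.9% of genes were so, and on the TMM scale, where 18.8% and 20.2% were. Cdh18 was among the lower ones there, with 330 and 352 CPM in Control and 256 and 281 CPM in CrT-KO (log2 fold change -0.30, SE 0.09). In L4/5 IT-like nuclei it was higher, with 219 and 215 against 255 and 238 CPM (0.23, SE 0.08). Cdh13 went from 310 and 254 to 214 and 230 CPM in L2/3 IT-like nuclei (-0.29, SE 0.10), and in the cluster led by Lypd1 and Adamtsl1 it had 1343 and 1287 CPM in Control and 868 and 918 CPM in CrT-KO. Cdh10 was higher in L4/5 IT-like nuclei (554 and 710 against 732 and 769 CPM) and lower in L6 CT-like nuclei, with log2 fold changes of 0.29 and -0.12.

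Cdh8 had a log2 fold change below 0 in all 7 types, between -0.25 and -0.05, with both CrT-KO libraries below both Control libraries in 5 of them, where 3.93% of genes were so in at least 5. In the 11 unnamed clusters both CrT-KO libraries were below both Control libraries in 3 and above them in 1. The latter, led by St8sia6 and Tshz2, had 676 and 802 against 811 and 807 CPM of Cdh8. The share of all genes for these cluster counts was not computed. Cdh7 was below 0 in each of the 5 types where it was tested (-0.47 to -0.03), and Cdh9 in 5 of 6 (-0.47 to 0.09 over all 6). For both genes the libraries of the 2 genotypes overlapped in every type tested except L2/3 IT-like nuclei. In L4/5 IT-like nuclei Cdh4 had 104 and 98.7 CPM in Control and 77.4 and 71.8 CPM in CrT-KO (log2 fold change -0.40, SE 0.10). Its log2 fold change of 1.27 in L5/6 NP-like nuclei rested on 11 and 8 UMIs in Control and 24 and 26 in CrT-KO. In the same nuclei Cdh6 gave 117 and 130 UMIs against 86 and 91 (-0.59, SE 0.17).

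**Figure D5:**
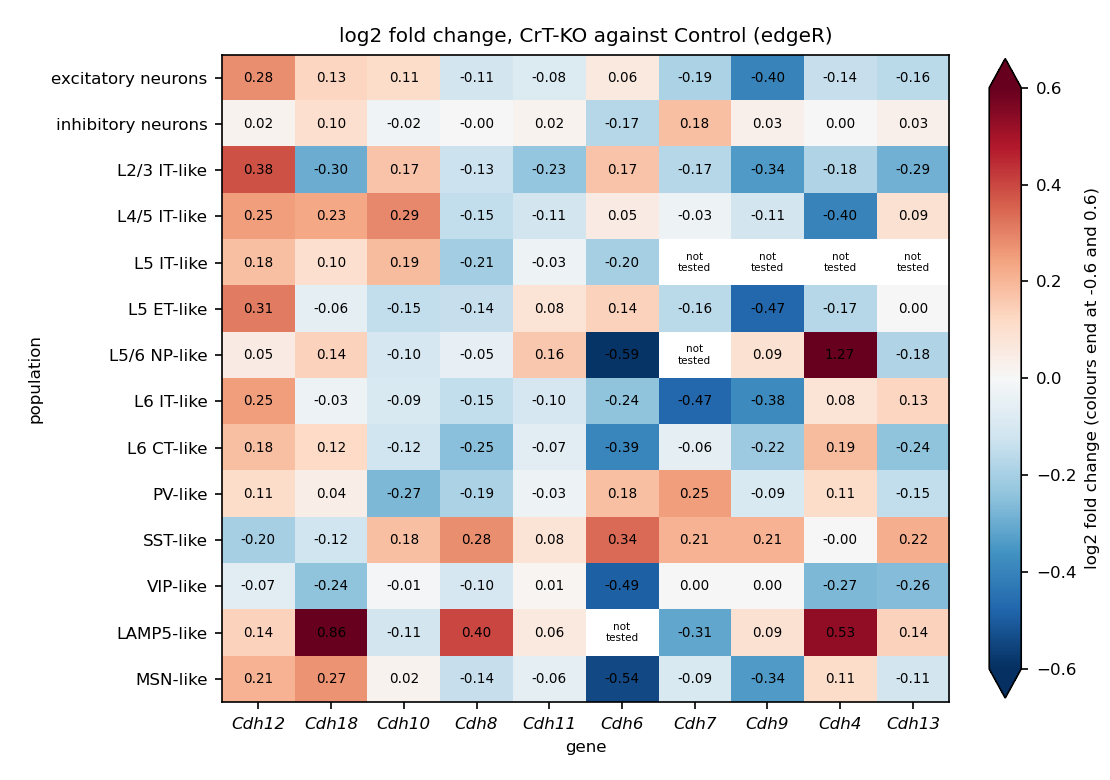
Fitted log2 fold change (CrT-KO against Control, printed in each cell) of the 10 cadherin genes in the excitatory and inhibitory classes, 7 excitatory types and 5 inhibitory subclasses. Red marks values above 0, blue values below 0 and white cells genes not tested there. The Cdh12 column was above 0 in all excitatory rows and the Cdh8 column below 0 in all of them, while the inhibitory rows held both signs for both genes.

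Inhibitory neurons as a class, a mixture that includes MSN-like nuclei, had member log2 fold changes from -0.17 to 0.18. Cdh12 had 978 and 982 CPM in Control and 1015 and 952 CPM in CrT-KO (log2 fold change 0.02, SE 0.08), and Cdh9 had 223 and 185 against 187 and 224 CPM (0.03, SE 0.10). Whether the differences of excitatory and inhibitory neurons differ from each other was not tested. Cdh7 was higher (137 and 121 against 139 and 149 CPM) and Cdh6 lower (50.6 and 52.9 against 44.2 and 47.0 CPM), by 0.18 and -0.17 on the log2 scale. No member was called by edgeR or DESeq2, and edgeR called 0.0630% of genes. An unadjusted edgeR p under 0.05 was found for 1 member and for 669 of all 12703 genes.

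In the 5 inhibitory subclasses no member was called in 49 tests by either tool, with 10 unadjusted edgeR p values under 0.05. Over all genes such p values numbered 486 of 9180 in PV-like, 511 of 8933 in SST-like and 335 of 7493 in VIP-like nuclei. They numbered 314 of 6084 in LAMP5-like and 650 of 9968 in MSN-like nuclei. The share of genes called was 0.0654% in PV-like, 0.123% in SST-like, 0% in VIP-like, 0.0164% in LAMP5-like and 0.191% in MSN-like nuclei. In SST-like nuclei both CrT-KO libraries were above both Control libraries for 4 of 10 members, where 14.9% of genes were so. These were Cdh7 (240 and 233 against 263 and 275 CPM), Cdh8 (390 and 385 against 470 and 458 CPM), Cdh10 and Cdh13. In PV-like nuclei Cdh7 was 217 and 204 CPM in Control and 246 and 254 CPM in CrT-KO. MSN-like nuclei had less Cdh6 in CrT-KO, with 180 and 162 UMIs against 131 and 102 (log2 fold change -0.54, SE 0.16). Over the 5 subclasses Cdh9 ran from -0.34 (SE 0.12) in MSN-like to 0.21 (SE 0.14) in SST-like nuclei. In MSN-like nuclei Cdh9 had 194 and 192 CPM in Control and 137 and 167 CPM in CrT-KO. Cdh12 ran from -0.20 (SE 0.10) in SST-like to 0.21 (SE 0.10) in MSN-like nuclei. The class values of both genes thus cover subclass values of both signs. The Cdh18 value of 0.86 in LAMP5-like nuclei came from 1 CrT-KO library, which gave 146 UMIs where the other 3 gave 38 to 49.

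Among glia, Cdh12 gave 407 and 434 CPM in Control and 640 and 585 CPM in CrT-KO oligodendrocytes (log2 fold change 0.53, SE 0.11), and Cdh18 gave 205 and 190 against 258 and 279 CPM (0.43, SE 0.12). In microglia the Cdh12 values were 609 and 778 against 962 and 800 CPM (0.34, SE 0.13). Neuronal RNA moved the same way. The summed level of all 15 neuronal markers was 2659 and 2701 CPM in Control against 3240 and 2819 CPM in CrT-KO oligodendrocytes, and 13 of the 15 had a log2 fold change above 0, with a median of 0.15. In microglia the sum was 4006 and 3888 against 4774 and 4171 CPM, with 11 of 15 markers above 0 and a median of 0.15. The log2 fold changes of the markers ran from -0.25 to 0.45 in oligodendrocytes and from -0.21 to 0.34 in microglia. In excitatory neurons Cdh12 itself had a log2 fold change of 0.28 (SE 0.06) and Cdh18 one of 0.13 (SE 0.06). The part of neuronal RNA in these Cdh12 and Cdh18 values was not tested. Cdh10, the member that glia express most, overlapped between genotypes in oligodendrocytes (1025 and 826 against 1056 and 839 CPM).

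No member was called in oligodendrocytes (3 unadjusted edgeR p values under 0.05), in microglia (2), or in the 25 tests over OPCs, astrocytes, and endothelial cells and pericytes (1), by edgeR or DESeq2. Over all genes such p values numbered 601 of 9145 in oligodendrocytes, 466 of 7266 in microglia, 328 of 5908 in OPCs and 222 of 4952 in astrocytes. In endothelial cells and pericytes they numbered 39 of 3455. The shares of genes called by edgeR were 0.0328% in oligodendrocytes, 0.0413% in microglia, 0.0339% in OPCs, 0.0202% in astrocytes, and 0% in endothelial cells and pericytes.

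The partners and relatives of these cadherins were taken from lists of 48 other genes. In excitatory neurons 39 of them were tested and none was called by edgeR or DESeq2. The unadjusted edgeR p was under 0.05 for 3 of them, beside 1242 of all 13925 genes. All 11 catenins and cadherin-binding proteins were tested, with a median log2 fold change of 0.01 beside -0.00 for all genes. Ctnna2, Ctnnd2 and Cdh2 are named after their values were seen. Ctnna2, the neuronal alpha-catenin, had 2560 and 2679 against 2705 and 2797 CPM (0.12 on the log2 scale, SE 0.07, edgeR adjusted p = 0.639). Ctnnd2, a neuronal delta-catenin that binds the cadherin juxtamembrane region, had 2103 and 2110 against 2121 and 2129 CPM (0.06, SE 0.06, edgeR adjusted p = 0.818). Cdh2, N-cadherin, the classical cadherin of most synapses, had 422 and 433 against 411 and 441 CPM (0.04, SE 0.07) and did not pass. The medians were 0.05 for 4 other type II cadherins, -0.03 for 8 delta-protocadherins and -0.05 for 15 other cadherin-repeat genes.

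In the edgeR fits without a replicate block, the only gene of these lists that passed the threshold in any population was Pcdh15 (ENSMUSG00000052613), a protocadherin best known from the tip links of inner ear hair cells. It fell in L2/3 IT-like nuclei, from 1250 and 1338 CPM in Control to 881 and 959 CPM in CrT-KO, in the type where Cdh12 was called higher. The fitted difference was -0.44 on the log2 scale (SE 0.08, edgeR adjusted p = 0.00401). In L4/5 IT-like nuclei it fell from 1917 and 1951 to 1566 and 1443 CPM (-0.32, SE 0.07, edgeR adjusted p = 0.0765). It was called in all 11 alternatives in the former, and in the latter in 7 of 11, since leaving out any library raised the adjusted p, to at most 0.508. Over all excitatory neurons Pcdh15 had 1413 and 1467 against 1173 and 1161 CPM and did not pass (edgeR adjusted p = 0.254). In inhibitory neurons its log2 fold change was 0.01 (SE 0.09). In MSN-like nuclei it went the other way, with 313 and 362 against 427 and 430 CPM (0.36, SE 0.11), and did not pass. The part that gene length plays in the Pcdh15 values was not tested.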

How the data were processed

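Nuclei of the right cortex of 2 Control and 2 CrT-KO males were sorted by flow cytometry and sequenced with a 10x 3' droplet kit. The authors deposited raw UMI counts per gene and nucleus, made with Cell Ranger 3.1.0 (submitters' processing notes, which also name Seurat 3.1.4 and FastQC) on GRCm38 with whole gene bodies counted as exon. Counts therefore include intronic reads, and free RNA was not removed. No columns of values were left unread (0).

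Here, Scrublet (scanpy 1.11.5) marked 2.91% to 4.174% of nuclei per library as doublets, which were removed. Counts were scaled to 10000 per nucleus, and 3000 variable genes, without cadherin and catenin genes, 30 components and 20 neighbours gave Leiden clusters (leidenalg 0.10.2, resolution 1.0). Clusters were named by the highest mean marker score, if they had at least 20 nuclei, 3 markers detected in 10% of nuclei, leading genes (top 10 by fold) that did not favour another class, and a score of at least 1.0 for glia or 0.9 for subclasses and layers. These limits were set after the matrices were seen, and the names were rebuilt here, so that differences from the study can arise from them. The UMIs of each population were added up for each library and fitted with edgeR 4.0.16 in R 4.3.3 (quasi-likelihood test, TMM, filterByExpr with a minimum count of 10 and total of 15, at least 10 nuclei per library, Benjamini-Hochberg over all tested genes, threshold 0.1). CPM uses all UMIs of a population and no TMM factor, and each SE was derived from the fitted fold and its F value. In sums simulated from the excitatory means with 200 genes changed 2-fold, 87.5% were recovered among 13925 genes with 22 false calls. From the microglia means it was 69.0% among 7266 genes with 10 false calls. The simulation used 1 fixed dispersion for all genes, not estimated from the libraries. Member differences in excitatory neurons were smaller than 2-fold, so these shares do not tell how often such differences are called. DESeq2 1.42.0 was an alternative. With n = 2 animals a group, p-values rest on few degrees of freedom.

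The members, lists and naming of populations were chosen with earlier results of these data known. Genes were named by a rule: the 10 members, every gene of the other lists that was called in any population, Slc6a8, and the 2 genes most alike each member. Acot10, Cdh2, Ctnna2, Ctnnd2 and Fat1 are outside this rule. Protein and promoter sequences were not used here.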

Additional observations from a re-analysis of the deposited data

How the results depend on the processing

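The number of members called depended on the fit. In excitatory neurons it was 0, and 2 with DESeq2 or with the replicate number as a block, where 2 genes of the other lists, Pcdh15 and Fat1, were also called. The block called 4.09% of all genes in excitatory neurons, against 0.158% without it. In oligodendrocytes it was 0, and 2 with the block or 1 with nuclei of at least 1000 UMIs, which called 1.03% and 0.523% of genes, against 0.0328%. Over the excitatory layer populations it was 1, and 4 without a filter on low counts, 8 with the block, and 2 with cadherin genes kept in clustering. The block called 5.33% of genes in L2/3 IT-like, 2.21% in L4/5 IT-like and 0.468% in L5 ET-like nuclei. The main fit called 1.51%, 0.598% and 0.261% there. In L2/3 IT-like and L4/5 IT-like nuclei the fit without a filter called 1.33% and 1.20%. With cadherin genes kept in clustering these shares were 1.15% and 0.687%. Over the inhibitory subclasses it was 0, and 3 with the block, all in MSN-like nuclei, where it called 1.88% of genes against 0.191%. Fits that leave out 1 library assume that the lone library of a group varies like the others. Which members were called changed in some of these fits, and effect sizes are given instead. For Cdh9 in excitatory neurons the log2 fold change was -0.24 without Control replicate 1 and -0.54 without Control replicate 2. It was -0.34 without CrT-KO replicate 1 and -0.45 without CrT-KO replicate 2. The cause of the changes in the calls was not tested. The counts for microglia, inhibitory neurons and the 3 smaller classes stayed at 0 in all alternatives run. Cdh12 in L2/3 IT-like nuclei was called in all 11 alternatives, with log2 fold changes of 0.35 to 0.41, and the layer count stayed at 1 with a threshold of 0.05.

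Same-numbered libraries share only a number in the labels. Their deviations from the group means correlated at 0.24 in excitatory neurons, 0.15 in inhibitory neurons, 0.11 in oligodendrocytes and 0.02 to 0.04 in microglia, OPCs and astrocytes, and at -0.42 in endothelial cells and pericytes, where the crossed pairing, added after the data were seen, called 0 genes. The L5 IT-like population was not formed with doublets kept or with cadherin genes in the clustering, so those layer counts lack it. The log2 fold changes kept their sign in 107 of 110 member and alternative pairs in excitatory neurons, where Cdh12 stayed between 0.23 and 0.33 and Cdh9 between -0.54 and -0.24, in 98 of 110 in oligodendrocytes, 90 of 96 in microglia and 94 of 110 in inhibitory neurons.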
